A study of Homo sapiens with 4 samples.

Results

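The genes described here are 10 of the 16839 gene rows in the count table: PDE6A, PDE6B, PDE6G, CNGA1 and CNGB1 of rod photoreceptors, PDE6H, GNAT2 and GNB3 of cones, RCVRN of both, and IMPG1 of the matrix around them. They were picked from photoreceptor genes by symbol, with earlier results of the same comparison known, so the differences between the groups are given for them as a description and not as a test. Messenger RNA was sequenced from the D458 line of human medulloblastoma, a childhood tumour of the cerebellum; the line is of the MYC-driven group 3 type. The shSETD8 group carried a lentiviral hairpin against SETD8, a methyltransferase of histone H4 lysine 20, and the shNull group a non-targeting hairpin. All cells of both groups had been selected in 1 µg/mL puromycin for 14 days. Each group had 2 libraries from separate clones, and p-values measure the spread between these clones alone. The sources used here do not say which of several SETD8 hairpins a clone carried.

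In photoreceptors, light-activated opsin switches on transducin, whose alpha subunit (GNAT2 in cones) leaves the beta and gamma subunits (GNB3 in the cone form). Transducin alpha then releases the inhibitory gamma subunit (PDE6G in rods, PDE6H in cones) from the catalytic phosphodiesterase (PDE6A with PDE6B in rods). Cyclic GMP falls and the channel built from CNGA1 and CNGB1 in rods closes, while recoverin (RCVRN) restrains the kinase that ends opsin signalling. Group 3 medulloblastoma is known for carrying part of this photoreceptor programme.

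Total counts were 52627366 and 49064974 in the shSETD8 libraries and 44527591 and 40908334 in the shNull libraries. SETD8 itself was at 14.0 and 26.4 CPM (counts scaled to a common library size) in shSETD8 replicates 1 and 2, against 38.9 and 41.6 CPM in the shNull libraries. These shSETD8 levels were 34.7% and 65.5% of the mean level in shNull, while a knockdown of 80% is given in the label. Over tested genes averaging 100 normalised counts or more, the SD of log2 differences was 0.51 between the shSETD8 libraries and 0.21 between the shNull libraries. Of 6 markers listed for this type of medulloblastoma, 4 were in the table, and NPR3 and EOMES were not. MYC and OTX2 were at 2115 CPM or more in every library, IMPG2 was at 733 to 950 CPM and GABRA5 at 41.2 to 61.3 CPM.

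The 250 bases before the annotated start, written 5′ to 3′ on the gene's strand, are shown for the member with the greatest difference (PDE6H), for the member with the AP-1 core (PDE6B, first of its 2 starts), and for PDE6A and CNGB1, whose values overlapped between the groups. The sequences are from RefSeq on GRCh38.p14, and windows were matched for 7 of the 10 members, not for GNB3, PDE6G and RCVRN. Capitals mark matches on either strand to TAATCC (the core bound by CRX and OTX2), TGCTGA (the half-site bound by NRL) or TGANTCA (the AP-1 core). The full NRL site contains the AP-1 core, so these motifs can overlap.
PDE6H (chr12:14972792-14973041, plus strand): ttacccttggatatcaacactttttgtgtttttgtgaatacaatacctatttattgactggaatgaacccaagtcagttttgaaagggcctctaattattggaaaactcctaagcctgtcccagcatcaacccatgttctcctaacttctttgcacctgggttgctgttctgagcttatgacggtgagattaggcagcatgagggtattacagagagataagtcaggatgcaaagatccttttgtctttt
PDE6B (chr4:625323-625572, plus strand): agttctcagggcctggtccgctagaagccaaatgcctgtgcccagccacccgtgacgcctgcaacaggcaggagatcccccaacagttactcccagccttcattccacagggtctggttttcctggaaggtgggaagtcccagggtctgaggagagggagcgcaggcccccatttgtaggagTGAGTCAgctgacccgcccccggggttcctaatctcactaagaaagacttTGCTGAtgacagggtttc
PDE6A (chr5:149944794-149945043, minus strand): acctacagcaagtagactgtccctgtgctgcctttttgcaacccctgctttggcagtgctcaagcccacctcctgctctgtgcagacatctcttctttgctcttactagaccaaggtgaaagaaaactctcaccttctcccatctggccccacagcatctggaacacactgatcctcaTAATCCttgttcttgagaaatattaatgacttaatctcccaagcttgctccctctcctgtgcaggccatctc
CNGB1 (chr16:57971129-57971378, minus strand): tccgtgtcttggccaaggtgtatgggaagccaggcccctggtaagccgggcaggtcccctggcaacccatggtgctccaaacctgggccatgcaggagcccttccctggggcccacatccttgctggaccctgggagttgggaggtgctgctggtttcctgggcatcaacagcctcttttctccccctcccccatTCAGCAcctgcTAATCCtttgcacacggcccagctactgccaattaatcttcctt

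TAATCC lay 72 bases before the start of PDE6A and 44 bases before that of CNGB1, and none of the other 5 members with a window held it. The 7 members had 10 windows, and 2 of these held TAATCC. Of all 35116 promoter windows of the same length, 5.62% held it. TGCTGA was found before PDE6B and CNGB1, in 3 of the 10 windows, against 14.0% of all windows. TGANTCA was found before PDE6B, 68 bases from the start of the window shown, in 1 of the 10, against 6.57% of all windows. The windows of PDE6H, CNGA1, GNAT2 and IMPG1 held no match to these 3 strings, which says nothing of what binds there or elsewhere.

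The cone phosphodiesterase inhibitor PDE6H stood furthest apart, and the rod genes CNGA1 and PDE6B and the matrix gene IMPG1 were also above both shNull libraries in both shSETD8 libraries. PDE6A, the most abundant rod member, and CNGB1 overlapped between the groups. Both shSETD8 libraries were above both shNull libraries in 7 of the 9 members tested and below them in 0, against 22.9% and 22.4% of all genes tested; RCVRN, not tested, also had both above. The edgeR quasi-likelihood test, adjusted over all genes, called 0 of the 9 members tested and 0% of all 14546 genes. At an unadjusted p under 0.05 it gave 5 members (PDE6H, CNGA1, IMPG1, PDE6B and PDE6G), all higher in shSETD8, where 5.65% of all genes were higher. DESeq2 called PDE6H, CNGA1, IMPG1 and PDE6B as higher over all genes, where it called 0.928% of genes as higher, and the edgeR likelihood ratio test called the same 4, where it called 0.894% as higher; limma-voom called 0 members and 0% of genes. Since this comparison chose the members, nothing is read from these counts.

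**Figure D1:**
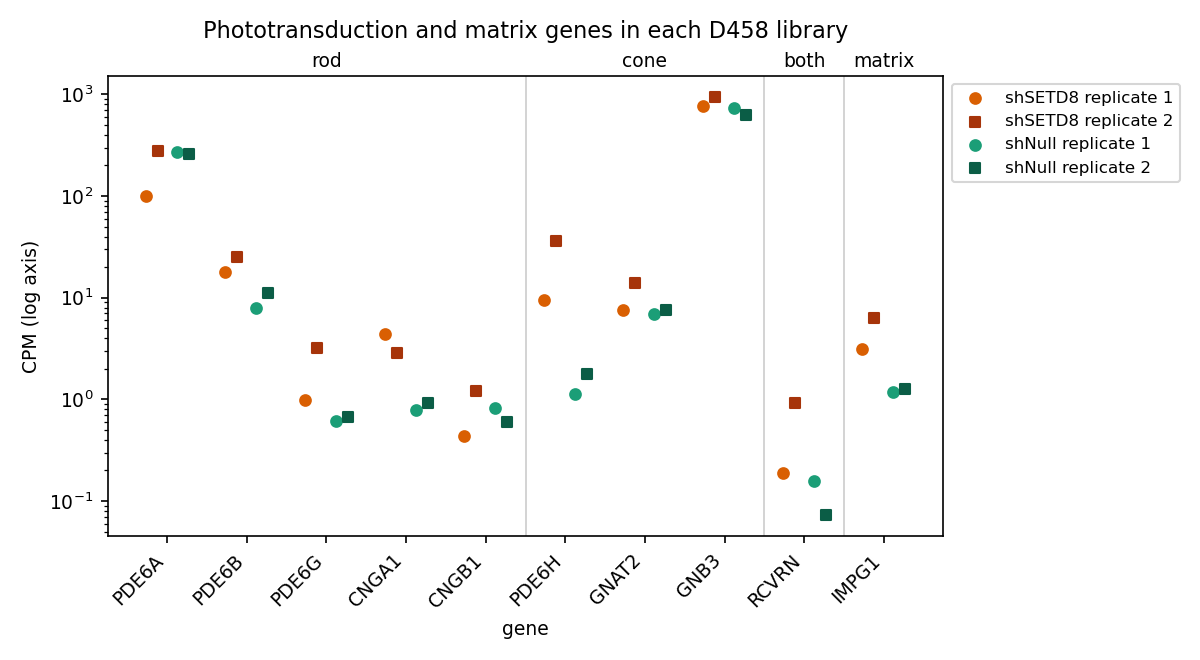
CPM of each member in each library on a log axis, with the rod, cone, shared and matrix genes set apart; each point is 1 library. GNB3 and PDE6A lie highest, PDE6H has the widest gap between the shSETD8 libraries (9.46 and 35.9 CPM) and the shNull libraries (1.13 and 1.78 CPM), and PDE6A and CNGB1 overlap between the groups.

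Among the cone members, PDE6H was at 9.46 and 35.9 CPM in shSETD8 replicates 1 and 2, against 1.13 and 1.78 CPM in the shNull libraries. That is 496 and 1754 counts against 50 and 74. The groups did not overlap, and the shSETD8 libraries themselves differed 3.80-fold. Replicate 1 lay 6.50-fold and replicate 2 24.7-fold above the shNull mean, and the fitted log2 fold change (shSETD8 over shNull) was 3.96 ± 0.72 (SE, n = 2 each).

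GNAT2, cone transducin alpha, was at 7.57 and 14.0 CPM in shSETD8 replicates 1 and 2, against 6.89 and 7.53 CPM in shNull. Replicate 1 exceeded the higher shNull library by less than the spread of the shNull libraries, so the separation rested on replicate 2. The log2 fold change was 0.58 ± 0.32 (SE). All 1381 exonic bases of GNAT2 in GENCODE 29 lie opposite exons of GNAI3 or AMPD2, and the sources used here do not say whether the counting used strand. GNAI3 was at 79.2 and 74.5 CPM in shSETD8 and at 77.7 and 71.7 CPM in shNull. AMPD2, opposite 42 of these bases, was at 88.2 and 95.0 CPM in shSETD8 libraries, against 76.3 and 81.6 CPM in shNull, higher in both. The libraries were stranded, but the strand setting of the counting is unknown, so the GNAT2 values are uncertain. Whether reads of either gene entered the GNAT2 counts was not tested.

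GNB3, transducin beta of cones, was at 775 and 951 CPM in shSETD8 libraries, against 727 and 623 CPM in shNull. The groups did not overlap, yet the gap between their nearest libraries was smaller than the spread within either group. Its log2 fold change was 0.35 ± 0.14 (SE), and per exon length it was the most abundant member in every library. Of its exonic bases, 16.0% lie opposite CDCA3, a cell-cycle gene at 130 and 147 CPM in shSETD8 and at 151 and 132 CPM in shNull.

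Among the rod members the catalytic pair parted. PDE6A had 99.7 and 276 CPM in shSETD8 replicates 1 and 2, against 274 and 261 CPM in shNull. Replicate 1 thus held 0.373 of the shNull mean while replicate 2 held 1.03 times it. The log2 fold change of -0.51 ± 0.45 (SE) was -1.42 without replicate 2 and 0.042 without replicate 1, so its direction depended on the library.

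PDE6B was at 18.1 and 25.4 CPM in shSETD8 libraries, against 7.86 and 11.1 CPM in shNull. Both shSETD8 libraries were above both shNull libraries, with a log2 fold change of 1.20 ± 0.26 (SE). An antisense transcript lies opposite 14.0% of its exonic bases. PDE6G, the rod inhibitory subunit, was at 0.992 and 3.17 CPM in shSETD8 (52 and 155 counts), against 0.612 and 0.673 CPM in shNull (27 and 28 counts). The groups did not overlap, with replicate 2 far above the other 3 libraries, and the log2 fold change was 1.69 ± 0.62 (SE).

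The rod channel subunits also differed from each other. CNGA1, which forms the pore, was at 4.37 and 2.85 CPM in shSETD8 (229 and 139 counts), against 0.793 and 0.914 CPM in shNull (35 and 38 counts). It was the only one of the 10 members higher in shSETD8 replicate 1 than in replicate 2, and both were at least 3.34-fold above the shNull mean (log2 fold change 2.08 ± 0.35, SE). Its partner CNGB1, which modulates the channel, was at 0.439 and 1.21 CPM in shSETD8 (23 and 59 counts), against 0.815 and 0.601 CPM in shNull (36 and 25 counts). The shSETD8 libraries lay on either side of the shNull libraries. Its log2 fold change of 0.21 ± 0.57 (SE) was -0.69 without shSETD8 replicate 2.

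RCVRN had 10 and 45 counts in shSETD8 and 7 and 3 in shNull, too few to pass the filter on low counts. Summed over each group and scaled to library size, the ratio of shSETD8 to shNull was 4.66, with an exact 95% interval of 2.35 to 10.2 that covers counting error only. Replicate 1, at 0.191 CPM, was close to shNull replicate 1 at 0.159 CPM, and replicate 2, at 0.922 CPM, was apart from both.

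IMPG1, a proteoglycan of the matrix around photoreceptor outer segments, was at 3.11 and 6.35 CPM in shSETD8 libraries, against 1.18 and 1.25 CPM in shNull. Its groups did not overlap, and the log2 fold change was 1.96 ± 0.42 (SE). Its paralog IMPG2, at 822 and 950 CPM in shSETD8 and 921 and 733 CPM in shNull, overlapped between the groups (log2 fold change 0.10 ± 0.15, SE).

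**Figure D2:**
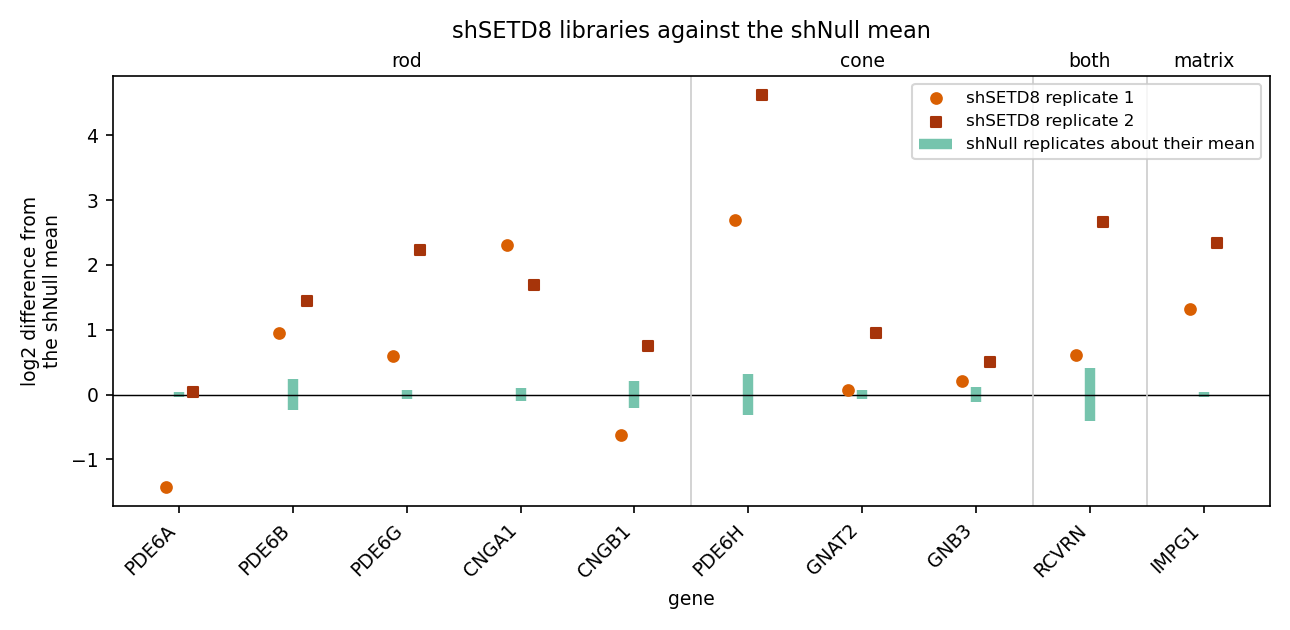
Log2 difference of each shSETD8 library (circles, replicate 1; squares, replicate 2) from the mean of the shNull libraries for each member, with a bar for the span of the shNull libraries. PDE6B, PDE6G, CNGA1, PDE6H, GNAT2, GNB3, RCVRN and IMPG1 lie above the bar in both libraries, GNAT2 by little in replicate 1, and PDE6A and CNGB1 lie below it in replicate 1 only.

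The size of the difference depended on the clone. Of the 9 members tested, 8 were higher in shSETD8 replicate 2 than in replicate 1, as were 49.3% of all genes tested. A log2 difference of 1 or more between the shSETD8 libraries was seen for 5 of the 9 (PDE6A, PDE6G, CNGB1, PDE6H and IMPG1), against 9.66% of all genes. The shNull libraries differed by that much for 0 of the 9 and for 2.01% of all genes. The members' median log2 difference from the shNull mean was 0.60 in the first and 1.44 in the second, where the median of all genes was 0.00 in both. SETD8 was lower in replicate 1, the library with the smaller median difference, and its part in this was not tested. Without replicate 1, edgeR called 8 members as higher, with 5.22% of all genes, and 0 as lower, with 4.32%. Without replicate 2 it called 4 as higher, with 8.12% of all genes, and PDE6A as lower, with 9.06%. Without either shNull library it called 0 members and 0% of genes. In these fits the lone shSETD8 library is assumed to vary like the shNull libraries. RCVRN, which failed the filter on low counts with all libraries kept, passed it without replicate 1. That fit thus tested 10 members, and RCVRN was among the 8 called. It had 45 counts in shSETD8 replicate 2, against 7 and 3 in shNull.

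**Figure D3:**
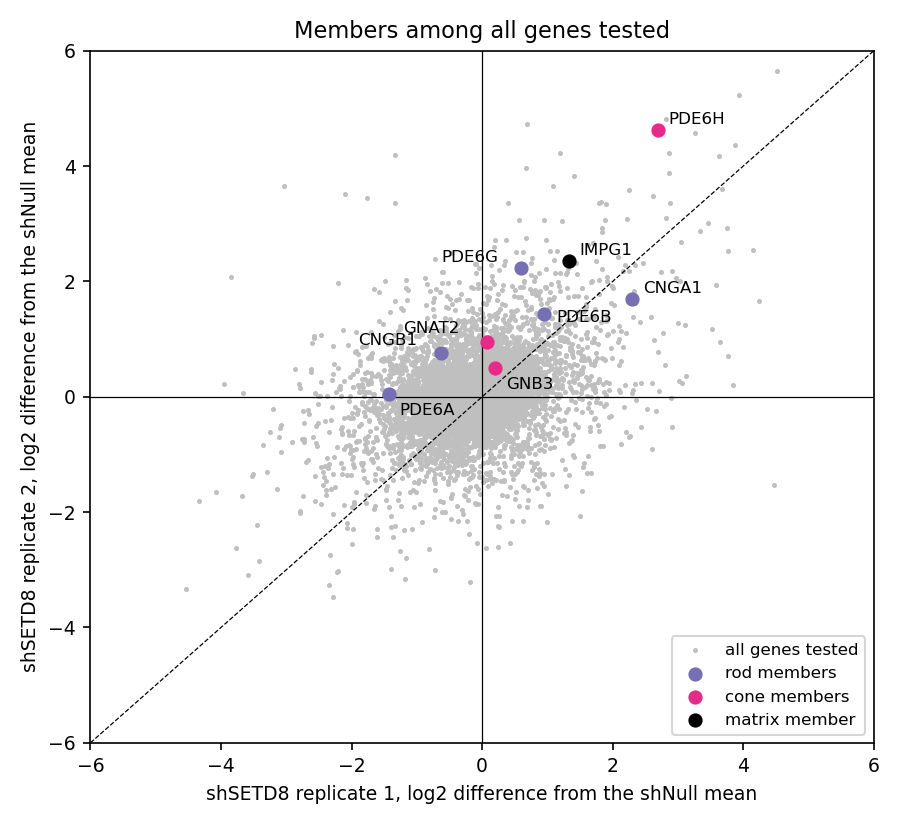
Log2 difference from the shNull mean in shSETD8 replicate 1 (horizontal) and replicate 2 (vertical) for all genes tested (grey) and the 9 members tested; 2 genes lie beyond the axes, and the dashed line marks equal values. CNGA1 lies to the right of the line and the other members lie to its left.

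Rod and cone members were not separated by their group difference. The median log2 fold change was 1.20 over the 5 rod members, which ran from -0.51 to 2.08, and 0.58 over the 3 cone members, which ran from 0.35 to 3.96. The member with the greatest difference was thus a cone gene although the cone median was lower. Both medians were higher in shSETD8 replicate 2, at 1.44 for rod and 0.95 for cone members, than in replicate 1, at 0.60 and 0.20. The median over all genes tested was 0.01. In bulk RNA, fewer cells of a type and less RNA per cell cannot be told apart.

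Per kilobase of exon (GENCODE 29), levels in the shNull libraries ran from GNB3 at 196 ± 21.4 CPM per kb through PDE6A at 36.1 ± 1.17 and GNAT2 at 5.22 ± 0.33 to CNGB1 at 0.0971 ± 0.0207 and RCVRN at 0.0395 ± 0.0209 (SD, n = 2). PDE6H (1.95 ± 0.61) and PDE6B (1.86 ± 0.45) did not differ beyond their spread in shNull. In shSETD8, PDE6H stood at 12.7 and 48.1 CPM per kb, next to PDE6A at 13.4 and 37.2. The cone inhibitor PDE6H was 20.2 and 24.0 times as abundant per length as the rod inhibitor PDE6G in the shSETD8 libraries, against 3.92 and 5.60 times in shNull. The catalytic PDE6A was 3.78 and 7.46 times as abundant as PDE6B in shSETD8, against 23.9 and 16.2 times in shNull. The CNGA1 to CNGB1 ratio was 20.3 and 4.80 in shSETD8, against 1.98 and 3.10 in shNull. In each of the 3 pairs the groups did not overlap, although these ratios come from the same counts as the differences above and are no further evidence for them.

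**Figure D4:**
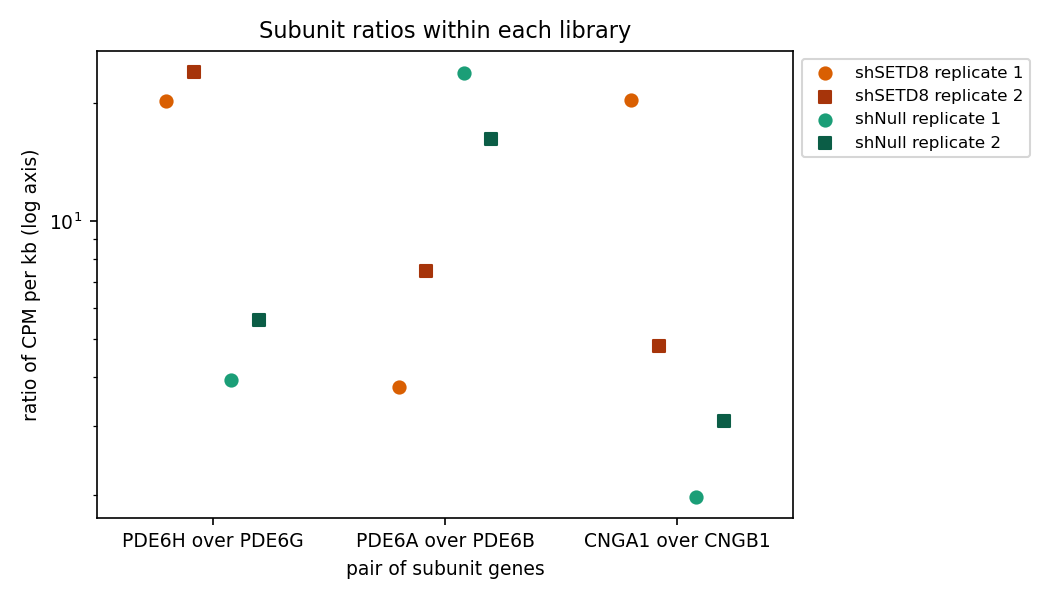
Ratio of CPM per kb within each library for 3 pairs of subunit genes, on a log axis; each point is 1 library. The PDE6H to PDE6G ratio is higher in both shSETD8 libraries (20.2 and 24.0) than in the shNull libraries (3.92 and 5.60), and the PDE6A to PDE6B ratio is lower (3.78 and 7.46 against 23.9 and 16.2).

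Of 39 other genes of the cascade, the outer segment and the matrix, listed with earlier results known, 32 were in the table and 30 were tested. edgeR and DESeq2 each called 0 of them. At an unadjusted edgeR p under 0.05 there were 5 higher and 0 lower in shSETD8, against 5.65% and 5.16% of all genes. These were the cone channel subunit CNGB3, the rod arrestin SAG, the chaperone AIPL1 that folds the phosphodiesterase, the disc-rim protein ROM1 and the photoreceptor cadherin CDHR1. Both shSETD8 libraries were above both shNull libraries in 9 of the 30 and below them in 0, against 22.9% and 22.4% of all genes. Over all 30 genes tested, the median log2 difference from the shNull mean was -0.13 in the first shSETD8 library and 0.59 in the second. In replicate 2, 28 of the 30 were higher than in replicate 1, as were 49.3% of all genes tested. Since the list was written with earlier results known, nothing is read from these counts.

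Of the counterparts of the members, CNGB3 and GNAT1 were higher in both shSETD8 libraries than in both shNull libraries. Of all genes tested, 22.9% were also higher in this way. PDE6C, GNB1 and IMPG2 overlapped between the groups. PDE6C, the cone catalytic subunit, was at 3.15 and 10.6 CPM in shSETD8 libraries, against 7.11 and 3.37 CPM in shNull, so the groups overlapped. CNGB3 was at 3.03 and 3.60 CPM in shSETD8 libraries, against 1.63 and 1.76 CPM in shNull, with no overlap (log2 fold change 0.97 ± 0.27, SE). Rod transducin alpha, GNAT1, had 10 and 55 counts in shSETD8 and 2 and 3 in shNull and was not tested. The transducin beta subunit GNB1, which most cells express, stayed at 282 and 299 CPM in shSETD8 libraries, against 280 and 294 CPM in shNull.

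The arrestins, which bind active opsin and end its signal, were both higher in shSETD8 replicate 2. Cone arrestin ARR3 was at 5.63 and 19.2 CPM in shSETD8 libraries, against 5.62 and 4.35 CPM in shNull. SAG was at 0.915 and 2.81 CPM in shSETD8 libraries, against 0.430 and 0.120 CPM in shNull. The opsins and CNGA3 were not analysed here.

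**Figure D5:**
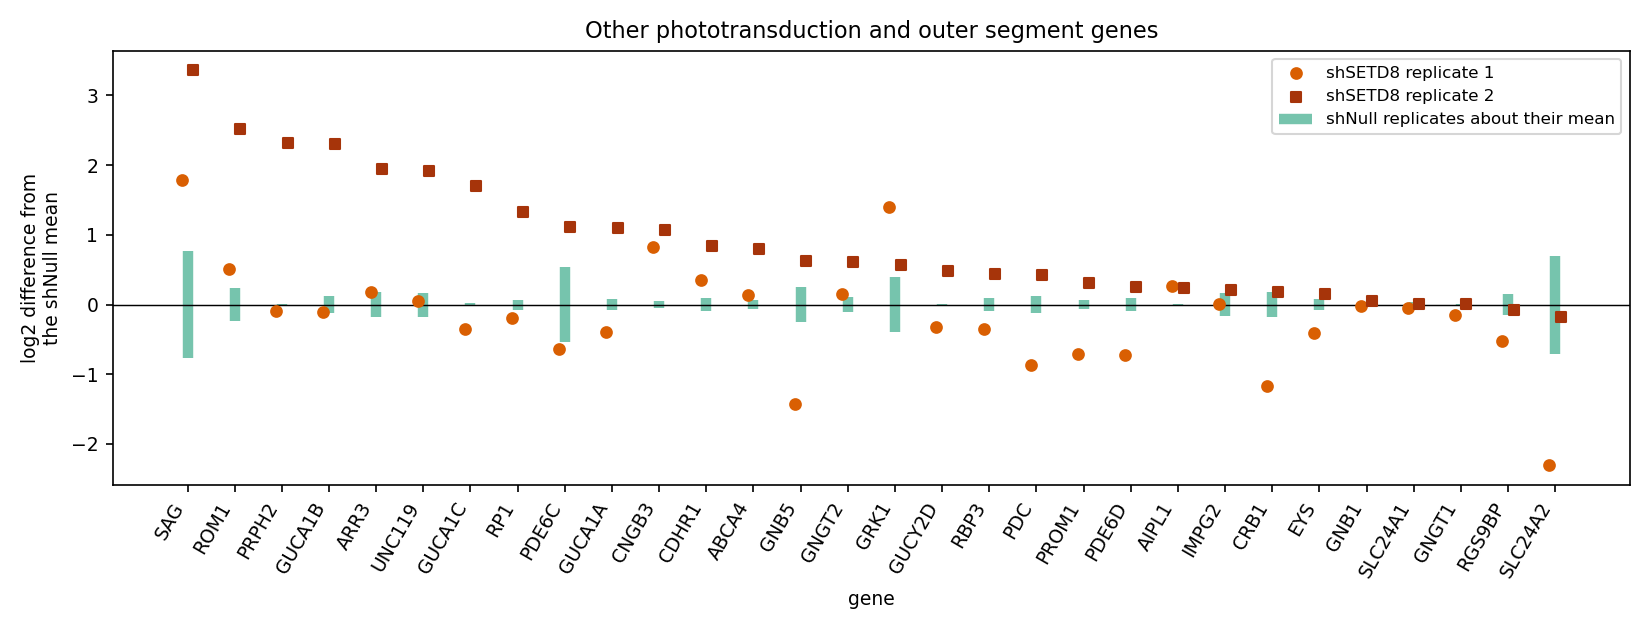
Log2 difference of each shSETD8 library from the shNull mean for the 30 other cascade, outer segment and matrix genes tested, in order of replicate 2, with a bar for the span of the shNull libraries. Replicate 2 (squares) lies above replicate 1 (circles) in 28 of the 30 genes, and GRK1 and AIPL1 are the exceptions.

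Of 12 transcription factors of photoreceptors listed, 11 were tested. Of these edgeR called 0, with 0% of all genes, and DESeq2 called 1 as higher, with 0.928% of all genes. At an unadjusted edgeR p under 0.05, 3 were higher (NR2E3, RAX2 and RXRG) and 0 lower in shSETD8, against 5.65% and 5.16% of all genes. The groups did not overlap for 3 factors higher in shSETD8 (the same 3) and 3 lower (OTX2, NEUROD1 and SIX3), and they overlapped for 5. Of all genes tested, 22.9% were higher and 22.4% lower without overlap, so these counts are not read as a result about the factors. CRX, which acts in rods and cones, was at 23.3 and 26.1 CPM in shSETD8 libraries, against 27.6 and 20.5 CPM in shNull. NRL, which directs rod fate, was at 22.3 and 170 CPM in shSETD8 libraries, against 45.7 and 36.9 CPM in shNull, and its target NR2E3 was at 3.91 and 14.5 CPM, against 2.54 and 2.48 CPM. RAX2, named because DESeq2 called it, was at 14.9 and 14.4 CPM in shSETD8 libraries, against 5.44 and 6.69 CPM in shNull. Of factors that act in cones, RXRG was at 176 and 191 CPM in shSETD8 libraries, against 144 and 150.4 CPM in shNull, and THRB was at 4.31 and 13.7 CPM, against 9.58 and 8.78 CPM, with overlap. NRL and NR2E3 were highest in shSETD8 replicate 2, as most members were, and so was THRB. CRX, RAX2 and RXRG differed little between the shSETD8 libraries.

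Markers of other cells of the eye and of contaminating cells were summed in each library. The 5 markers of retinal pigment epithelium summed to 1.39 and 3.22 CPM in shSETD8 libraries, against 1.93 and 2.21 CPM in shNull, with TYRP1 at 0 in shSETD8 replicate 1. The 4 pineal markers summed to 30.9 and 38.5 CPM in shSETD8 libraries, against 26.7 and 31.2 CPM in shNull. ASMT was higher in both (15.3 and 23.7 CPM, against 9.56 and 10.2 CPM), and AANAT was lower in both (15.2 and 14.3 CPM, against 16.5 and 20.3 CPM). TPH1 was also lower in both, but at only 20 and 8 counts in shSETD8, against 19 and 22 in shNull, and CHRNB4 overlapped. The 4 Müller glia markers present summed to 534 and 613 CPM, against 567 and 525 CPM. Most of this was GLUL, at 447 and 493 CPM, against 457 and 426 CPM. AQP4 was under 1 CPM in every library, and RLBP1, also listed, was not in the table. Of the sums given here, those of pigment epithelium, pineal and Müller glia were highest in shSETD8 replicate 2, as most members were. Their part in the members' values was not tested. The 6 ganglion and amacrine markers summed to 56.1 and 45.9 CPM, against 65.9 and 59.9 CPM, and the 5 of fibroblasts to 41.3 and 50.6 CPM, against 70.6 and 61.2 CPM. Among the fibroblast markers, LUM and DCN were lower in both shSETD8 libraries, COL1A1 and PDGFRB were higher in both, and COL1A2 overlapped. The 4 blood and immune markers summed to 3.09 and 2.34 CPM, against 2.36 and 2.72 CPM.

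Over the 4 libraries, the genes outside the set nearest to the members' median profile were MAP3K8, SLC4A8, F2RL2, PRKAA2 and JUN. Likeness was the Euclidean distance between centred log2 CPM values among 11582 genes averaging 100 normalised counts or more, and these 5 lay at 0.24 to 0.26. Of the members themselves, PDE6B was nearest to that profile at 0.36 and PDE6H farthest at 2.87, so the median profile describes PDE6H poorly.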

How the data were processed

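Poly(A)-selected, stranded libraries were made from total RNA with the TruSeq kit, per the labels' protocols. Each gene's value in the deposited table is a raw, whole-number count. The submitters' processing notes name the aligner STAR 2.4.0.1, the trimmer Trimmomatic 0.36, DESeq 1.32.0, FastQC 0.10.1 and the build hg19. The sources used here do not name the counting program. Another 2 columns of counts matched no sample and were not used.

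Groups came from the treatment label. edgeR 4.0.16 (R 4.3.3) with TMM, filterByExpr and quasi-likelihood F tests was fitted to all 14546 genes kept, with Benjamini-Hochberg adjustment and a threshold of 0.05. Each SE is the absolute log2 fold change divided by the root of its F statistic. Log2 differences of single libraries use a prior count of 2. Alternatives were DESeq2 1.42.0, the edgeR likelihood ratio test, limma-voom (limma 3.58.1), DESeq2 size factors, no filter and each library left out. The edgeR quasi-likelihood, edgeR likelihood ratio, DESeq2 and limma-voom fits were tested on simulated counts, and the other steps were not. The table gives no gene length, so exon lengths and overlaps came from GENCODE 29.

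The members, the gene lists and the tests were chosen with earlier results of these data known. The genes named include all members, their rod or cone counterparts, the arrestins and genes called over all genes. The factors CRX, NRL and NR2E3 and the 5 nearest profiles are also named. AIPL1, ROM1 and CDHR1 were named because their unadjusted edgeR p was under 0.05. The other photoreceptor factors were named after their values were seen. The sum of 1 list of retinal markers is not reported here.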

Additional observations from a re-analysis of the deposited data

How the results depend on the processing

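No paired analysis was possible because replicate numbers only follow the order of the records. The count of genes called over the whole table was 0, but 283 with the DESeq2 Wald test and 247 with the edgeR likelihood ratio test, and ran from 0 to 2550 with a library left out. Members called were 0, but 4 in each of these tests, and 0 to 8 with a library left out. Other cascade genes called were 0 to 14 with a library left out. The 14 came without shSETD8 replicate 1, where 9.55% of all genes were called in either direction. In that fit the lone shSETD8 library is assumed to vary like the shNull libraries, so nothing is read from this count. The median log2 fold change of the members, 1.20, ran from 0.62 to 1.46. That of rod members minus cone members, 0.62, was 0.69 with limma-voom and ran from 0.43 to 0.82 with a library left out. Members whose groups did not overlap numbered 7 of the 9 tested, against 45.3% of all genes tested. With a library left out they numbered 7 to 9, but a lone library meets this rule more easily, so these counts are not comparable. With a library left out, the log2 fold change of PDE6A ran from -1.42 (without shSETD8 replicate 2) to 0.042 (without shSETD8 replicate 1). That of CNGB1 ran from -0.69 (without shSETD8 replicate 2) to 0.76 (without shSETD8 replicate 1). Both changed direction, and the cause was not tested. The number of members tested was 9 or 10 by setting, because RCVRN was tested in some settings only. With 2 clones a group the spread between clones limits every value, and RCVRN, CNGB1 and PDE6G are further limited by low counts.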
